A study of Mus musculus with 12 samples.

Results

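Translation factors are the proteins that load an mRNA onto the ribosome, choose its start codon and move the ribosome along it. The genes described here are the protein-coding genes of the deposited muscle table whose symbols begin with Eif or Eef and a number, without the Eif4ebp repressors and the Eif2ak kinases. This rule, which uses names and no measured value, gave 61 of the 54532 genes in the table. Of these, 57 had a mean of at least 0.5 FPKM (fragments scaled by gene length and library size) over all 12 libraries and were tested, among 12754 genes in all. The 4 others were Eif5a2, Eef1akmt3, Eif4e1b and Eif2s3y. The smallest group mean of a tested member was 1.24 FPKM (Eef1akmt4), so no member passed the filter through a single group.

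RNA was sequenced from the gastrocnemius, the main calf muscle, of female ICR SCID mice, an immunodeficient strain, with 4 libraries labelled as biological replicates in each of 3 groups. The NTV group had no tumour and received vehicle. The TV group bore a subcutaneous tumour of HT1080, a single human fibrosarcoma cell line, and also received vehicle. The TL group bore this tumour too and was given selpercatinib, which inhibits the RET receptor kinase, as a daily oral gavage of 30 mg/kg over 19 days. Every mouse shared the SCID background, its age is not given in the sources used here, and tumour-free mice given selpercatinib were not analysed here. Values below follow the replicate numbers in the sample titles, which are 2, 3, 5 and 6 in NTV, 3, 4, 6 and 8 in TV and 1, 4, 5 and 7 in TL. A library is named by its group and that number, as in NTV 2.

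In initiation, eIF2 carries the initiator tRNA to the small ribosomal subunit and eIF2B recharges eIF2 with GTP. The large eIF3 complex is a scaffold on the small subunit, and the eIF4 group binds the cap and unwinds the leader of the mRNA. The factors eIF1, eIF1A, eIF5 and eIF5B govern start codon choice and subunit joining. In elongation, eEF1A brings each aminoacyl tRNA and eEF2 moves the ribosome by a codon, while the kinase eEF2K inhibits eEF2 by phosphorylation. Skeletal muscle is known for an exchange of eEF1A1 for its paralog eEF1A2 after birth. Many mRNAs of the elongation factors and of some eIF3 subunits begin with a C and a run of pyrimidines, the terminal oligopyrimidine tract, through which mTORC1 signalling controls their translation.

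The start regions of 8 members on which the results turn are shown first, because such a tract would stand at the start of the mRNA. Each runs from 60 bases before a start annotated by RefSeq to base 15 from it, in the build GRCm38.p6. Eef2k has 3 annotated starts and Eif4g3 has 2, and only the first listed is shown for each. Capitals mark a C followed by at least 4 pyrimidines that begins within 5 bases of the start, or the letters CACGTG, an E-box.
Eef2 (chr10:81176571-81176645, plus strand): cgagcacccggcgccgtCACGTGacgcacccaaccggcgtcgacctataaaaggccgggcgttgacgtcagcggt
Eef2k (chr7:120842771-120842845, plus strand): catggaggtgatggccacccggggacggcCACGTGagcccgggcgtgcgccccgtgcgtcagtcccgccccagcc
Eif4g3 (chr4:137993395-137993469, plus strand): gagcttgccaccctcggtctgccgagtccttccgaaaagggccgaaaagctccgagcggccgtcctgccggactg
Eif3f (chr7:108934355-108934429, plus strand): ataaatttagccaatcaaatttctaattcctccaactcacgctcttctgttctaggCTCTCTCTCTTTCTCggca
Eif4b (chr15:102073713-102073787, plus strand): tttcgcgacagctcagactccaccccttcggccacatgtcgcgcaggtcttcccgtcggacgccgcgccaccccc
Eif1 (chr11:100319889-100319963, plus strand): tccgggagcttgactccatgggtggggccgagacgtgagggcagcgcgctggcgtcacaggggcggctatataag
Eef1a1 (chr9:78481710-78481784, minus strand): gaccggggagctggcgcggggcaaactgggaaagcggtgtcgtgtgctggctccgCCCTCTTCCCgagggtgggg
Eef1a2 (chr2:181157001-181157075, minus strand): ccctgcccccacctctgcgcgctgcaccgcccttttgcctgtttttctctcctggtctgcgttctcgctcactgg
Eif3f and Eef1a1 held letters that match a tract at the annotated start, 15 and 10 pyrimidines long. Eef2 and Eef2k held an E-box in the bases printed. Annotated starts can differ from the starts used in muscle, and whether the marked pyrimidines are transcribed was not tested. A match of letters thus does not show that the mRNA begins with a tract.

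RefSeq promoter windows of 300 bases (250 before the start and 50 from it) were matched for 47 of the 61 members by symbol, 45 of them tested. A tract near the start was present in 10 of the 45 tested members (22.2%), against 24.1% of 8595 tested protein-coding genes with a window and 48.3% of 58 tested genes of cytosolic ribosomal proteins. The E-box CACGTG, whose letters read the same on both strands, was present in 12 of 45 (26.7%), against 12.1% of the tested protein-coding genes and 8.09% of all 27025 genes with a window. Of the 10 members with a tract, 5 were called higher in TV than in NTV (13.8% of all genes), with a median log2 change of 0.31. Of the 35 without a tract, 15 were called higher, with a median of 0.26. Of the 12 members with an E-box, 6 were called higher (median 0.29), and of the 33 without, 14 were (median 0.26). With either set of letters, the shares called higher and the medians thus lay near those without it. No test was made of this. Members without a tract match can include mRNAs that begin with a tract at another start, so the comparison cannot separate them.

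TV against NTV compares muscle with and without a tumour, both under vehicle. Many translation factor mRNAs were more abundant in TV. Of the 57 tested members, 25 rose, 1 fell (Eif2s1) and 31 were not called, by limma at an adjusted p under 0.05. Over all 12754 genes, 13.8% were called higher and 11.5% lower. The median log2 change of the members was 0.28, against 0.02 for all genes, and 48 of 57 lay above 0. The rises were moderate, with 1 member, Eif4g3, past 2-fold. The summed level of all members was 3201 ± 218 FPKM in NTV, 4135 ± 145 in TV and 3294 ± 229 in TL (SD, n = 4). A few abundant genes weigh most in this sum. The elongation factors alone summed to 1664 ± 115 FPKM in NTV, 2105 ± 189 in TV and 1575 ± 145 in TL. The 4 TV values of 27 members lay wholly above the 4 NTV values, where this held for 14.4% of all genes, and those of 1 lay wholly below (12.7% of all genes). The count of 25 became 15 without TV 4 and 16 without TV 3. It also became 15 under 3 other scalings between libraries (an equal FPKM total, the same computed after removing the mitochondrial genome and the top 50 genes, and quantile normalization), with 0, 4 and 2 members lower.

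**Figure D1:**
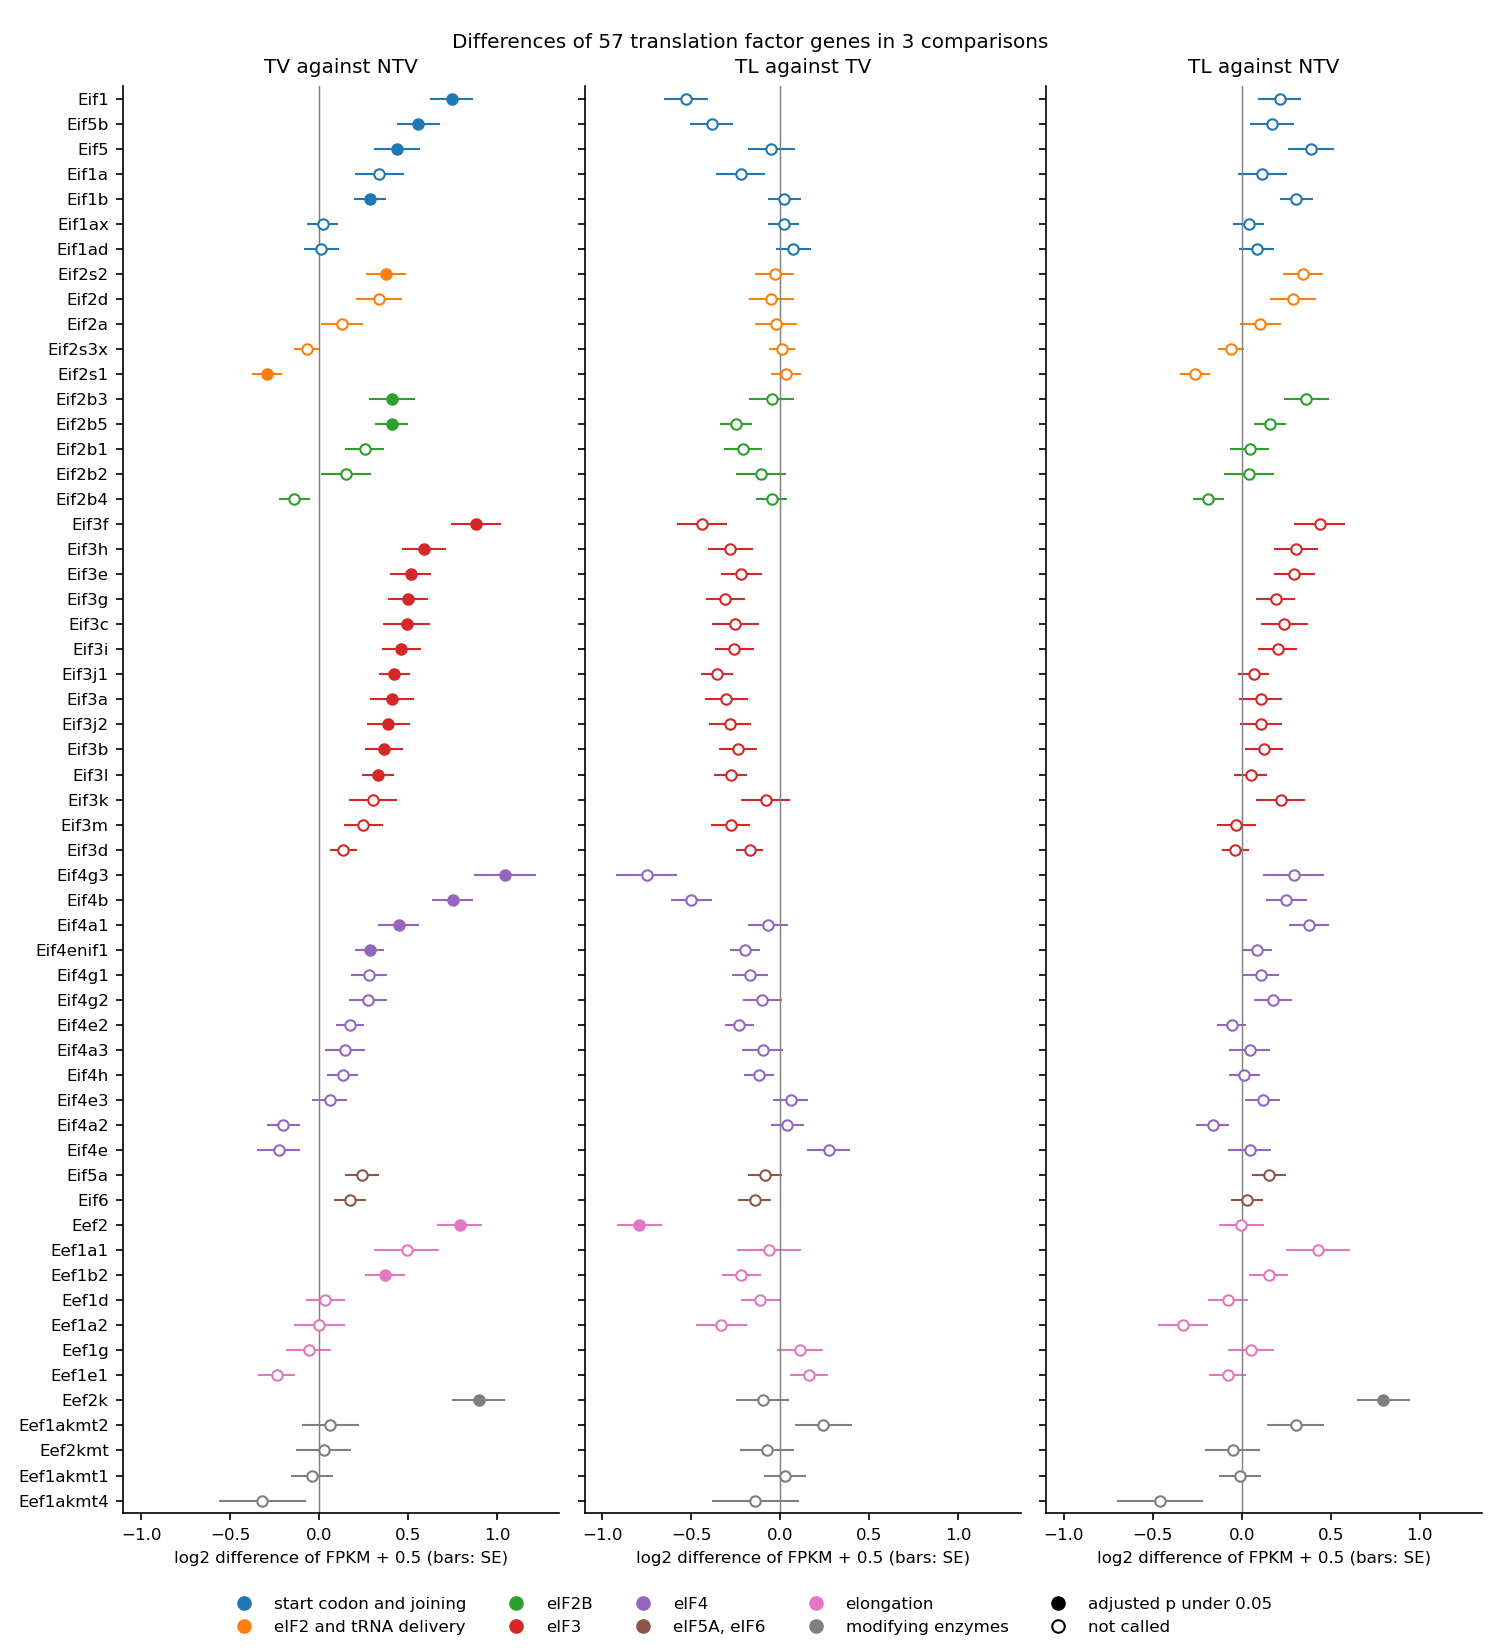
Log2 change of each tested member in each of the 3 comparisons of groups, as points with bars of ±1 standard error from limma, grouped by role; filled points passed the test. In TV against NTV 25 points passed above 0 and 1 below; in TL against TV only Eef2 passed, at -0.79, and in TL against NTV only Eef2k, at 0.80.

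Bulk muscle holds several cell types, and fewer cells of a type and less RNA per cell cannot be told apart in these values. The fibre markers Acta1, Ckm, Myh4, Myh1, Mb and Ttn dominated every library, with summed levels of 30770 to 37617 FPKM in NTV, 23661 to 48400 in TV and 23151 to 29631 in TL. Of these 6, only Mb was called, lower in TV. The summed level of 5 fibro-adipogenic and tendon markers was 55.6 to 100.4 FPKM in NTV, 8.51 to 21.6 in TV and 8.29 to 27.0 in TL, with 4 of 5 lower in TV. That of 4 endothelial markers was 54.7 to 73.9 FPKM in NTV, 38.8 to 48.9 in TV and 32.7 to 45.7 in TL, with 2 of 4 lower in TV. Over all genes, 11.5% were called lower in TV. The adipocyte (5), macrophage and neutrophil (3 of 5 tested), erythroid (3), satellite cell (2) and Schwann cell (3) markers gave no call, and the leukocyte marker Ptprc had means of 0.0746 FPKM in NTV and 0.0912 in TV. Reads of the mitochondrial genome made up 11.6% to 13.5% of assigned reads in NTV, 5.08% to 7.70% in TV and 6.04% to 13.9% in TL. Within TL this share was 10.1% in TL 1 and 13.9% in TL 5, but 6.04% in TL 4 and 6.55% in TL 7. Assigned reads per library ranged from 14939830 to 23580603, both in TV. The part of these shifts in the results on the members was not tested.

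The eIF3 complex was the group with the most calls. Of its 14 tested genes, 11 rose in TV (13.8% of all genes) and 3 gave no call. Their median log2 change was 0.42. All 14 lay above 0, as they did under each of the 4 other scalings between libraries. Their summed level was 393 to 464 FPKM over the NTV libraries, 574 to 628 in TV and 442 to 574 in TL. Every TV sum lay above every NTV sum, and TL 4 was the TL library nearest to the TV sums.

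Eif3f, a subunit of the outer part of the complex with a known role in muscle hypertrophy, had the largest eIF3 change. It read 47.6, 62.4, 43.1 and 48.2 FPKM in NTV, 92.7, 81.7, 97 and 97.9 in TV and 58.8, 78.4, 58.3 and 78 in TL. The TV values were all above the others, and the TL values lay above all NTV values except that of replicate 3. Its log2 change in TV against NTV was 0.88 ± 0.14, adjusted p = 0.00207, a 1.84-fold rise. Eif3h, which encodes another subunit of that outer region, read 71.8, 89.2, 67.3 and 78.4 FPKM in NTV, 116, 114, 115 and 115 in TV and 78.6, 115, 87 and 101 in TL. The TV values were nearly equal to each other, and the change was 0.59 ± 0.13, adjusted p = 0.00676. Eif3e (0.52 ± 0.12, adjusted p = 0.00839) and Eif3g (0.50 ± 0.11, adjusted p = 0.00808), an RNA-binding subunit, also rose.

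Eif3c, a core subunit, rose from 49.8 ± 3.66 to 70.3 ± 6.13 FPKM (0.49 ± 0.13, adjusted p = 0.0195), and Eif3i from 26.8 ± 3.23 to 36.9 ± 1.81 FPKM (0.46 ± 0.11, adjusted p = 0.011). The smaller called rises were those of Eif3a, the largest subunit and a core scaffold (0.41 ± 0.12), Eif3b (0.36 ± 0.11) and Eif3l (0.33 ± 0.09). Eif3k (0.30 ± 0.14, adjusted p = 0.123), Eif3m (0.25 ± 0.11, adjusted p = 0.114) and Eif3d, the subunit that can bind the cap (0.14 ± 0.08, adjusted p = 0.21), were not called. Of the exon bases of Eif3d, 43.3% overlap Gm17638 on the opposite strand, and as strand use in counting is not stated, their reads cannot be told apart. Eif3j1 (0.42 ± 0.09, adjusted p = 0.00626) and Eif3j2 (0.39 ± 0.12, adjusted p = 0.0327) are 99.4% identical over 2379 bases, so the division of reads between them is uncertain. With their reads added together, the change was 0.41 ± 0.09 on the length of Eif3j1 and 0.42 ± 0.09 on that of Eif3j2. Leaving out 1 library ended 5 of these calls. For Eif3a this held for NTV 2, NTV 3, NTV 6, TV 3 and TV 4 (adjusted p up to 0.0854), and for Eif3b for NTV 3, 5 and 6 and TV 3 and 4 (up to 0.0743). For Eif3c it held for NTV 2 and TV 4 (up to 0.0568), for Eif3l for NTV 2 and 6 and TV 3 (up to 0.0637), and for Eif3j2 for NTV 2 and 5 and TV 3 and 4 (up to 0.0905).

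**Figure D2:**
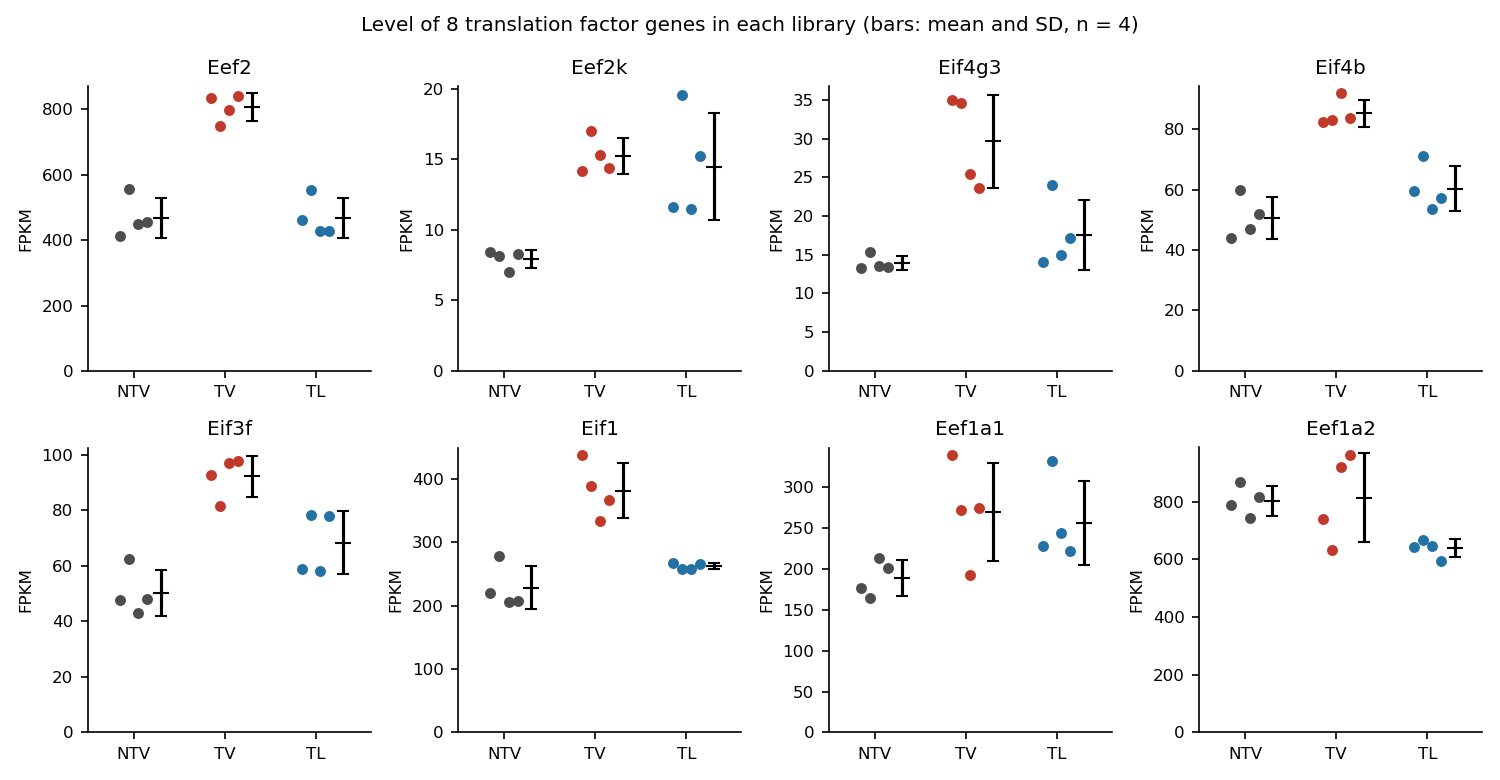
FPKM of selected members in each of the 12 libraries on a linear axis, with the mean and SD of each group and 1 panel per gene. Eef2 stands between 749 and 842 FPKM in TV and between 413 and 555 in both other groups, whereas Eef2k is lowest in NTV (6.97 to 8.41 FPKM).

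Among the 7 genes for start codon choice and subunit joining, 4 rose in TV (13.8% of all genes) and 3 gave no call (median 0.34). Eif1, the factor that keeps the scanning ribosome from stopping at wrong codons, read 221, 278, 206 and 208 FPKM in NTV, 437, 389, 334 and 366 in TV and 268, 258, 258 and 266 in TL. No TV value overlapped those of the other groups, and the 4 TL values lay within a narrow band inside the NTV range. Its change in TV against NTV was 0.74 ± 0.12, adjusted p = 0.00224. Adding the reads of its 12 near-identical pseudogenes, which summed to 9.76 FPKM against 291 for the gene, left the change at 0.75. The reads of Emd, a protein-coding gene at 13.5 FPKM with a matching stretch of 662 bases, were not added.

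Eif5b, the GTPase that joins the subunits, read 9.91, 10.1, 9.98 and 9.11 FPKM in NTV, 13.6, 17.7, 13.4 and 14.1 in TV and 9.66, 13.9, 10.1 and 11 in TL, a change of 0.56 ± 0.12, adjusted p = 0.00754. All TV values exceeded all NTV values. Of its exon bases, 16.8% overlap Rev1 on the opposite strand. Eif5, which activates the GTPase of eIF2, rose from 32.5 ± 3.03 to 44.6 ± 7.83 FPKM (0.44 ± 0.13, adjusted p = 0.0294), although TV 8, at 33.2 FPKM, lay inside the NTV range of 28.3 to 35.5. Eif1b, a close paralog of Eif1, rose from 22.7 ± 2.19 to 27.7 ± 1.25 FPKM (0.29 ± 0.09, adjusted p = 0.0397). The eIF1A genes Eif1a (0.34 ± 0.14, adjusted p = 0.0891) and Eif1ax (0.02 ± 0.09, adjusted p = 0.891) and the related Eif1ad (0.01 ± 0.10, adjusted p = 0.944) were not called. Of the exon bases of Eif1ad, 13.2% overlap Banf1 on the opposite strand. Banf1 stood at 81.4 FPKM on average and Eif1ad at 10.2. The call of Eif5 ended without any 1 of NTV 2, 5 and 6 and TV 3, 4 and 6 (adjusted p up to 0.0833). That of Eif1b ended without any 1 of NTV 3, 5 and 6, TV 3, 4 and 6 and TL 5 and 7 (up to 0.112).

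In the eIF4 group, 4 of 12 tested genes rose in TV (13.8% of all genes) and 8 gave no call (median 0.22). Eif4g3, a scaffold that links the cap-binding protein to the helicase and to eIF3, had the largest change of any member. It read 13.3, 15.3, 13.6 and 13.5 FPKM in NTV, 35, 34.6, 25.5 and 23.6 in TV and 14, 23.9, 14.9 and 17.2 in TL. The 4 TV values were above all NTV values, TV 3 and 4 were the highest, and TL 4 lay within the TV range. The change was 1.04 ± 0.17, adjusted p = 0.00227, a 2.06-fold rise. The other scaffolds were expressed at a higher level and were not called, Eif4g1 at 88.9 ± 5.39 and 108 ± 11.9 FPKM (0.28 ± 0.10, adjusted p = 0.0616) and Eif4g2 at 92.7 ± 5.55 and 113 ± 14.8 FPKM (0.28 ± 0.11, adjusted p = 0.0788). The Eif4g3 to Eif4g1 ratio of FPKM was 0.144 to 0.164 in NTV, 0.206 to 0.359 in TV and 0.142 to 0.228 in TL. It was therefore higher in every TV library than in every NTV library, with the TL libraries across both ranges.

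Eif4b, a cofactor of the helicase eIF4A, read 44, 59.9, 47 and 51.9 FPKM in NTV, 82.4, 82.9, 91.8 and 83.5 in TV and 59.6, 71, 53.5 and 57.3 in TL. TV lay wholly above NTV and TL, and the change was 0.75 ± 0.12, adjusted p = 0.00172. The helicase paralogs differed. Eif4a1, the form of growing cells, read 23.6, 20.4, 22.7 and 24 FPKM in NTV, 38.7, 30.7, 26.5 and 29.5 in TV and 29.7, 31.7, 26.7 and 30.6 in TL (0.45 ± 0.11, adjusted p = 0.0153), with no overlap between NTV and TV or between NTV and TL. Eif4a2, the more abundant form here, read 93.7, 101, 91.1 and 104 FPKM in NTV, 85.8, 79.6, 92.7 and 81.4 in TV and 90.8, 77.1, 88.7 and 92.1 in TL (-0.20 ± 0.09, adjusted p = 0.128) and was not called. The Eif4a1 to Eif4a2 ratio was 0.202 to 0.252 in NTV, 0.286 to 0.451 in TV and 0.301 to 0.411 in TL, above the NTV range in all 8 libraries with a tumour. The Eif4a1 call was lost after rescaling to an equal FPKM total or quantile normalization (adjusted p up to 0.0657). Adding the reads of the near-identical pseudogene Eif4a-ps4 (21.4 FPKM on average) to Eif4a1 gave 0.46 ± 0.11.

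Eif4e, the cap-binding protein itself, read 18.8, 21.8, 18.7 and 24.9 FPKM in NTV, 14.3, 20.1, 19.3 and 18.2 in TV and 20.5, 21.7, 21.4 and 22.8 in TL and was not called in any comparison (-0.23 ± 0.12, adjusted p = 0.187 in TV against NTV). Its lowest value was that of TV 3. The Eif4e to Eif4b ratio was 0.364 to 0.48 in NTV, 0.173 to 0.242 in TV and 0.306 to 0.401 in TL, so the TV range overlapped neither of the others. The other cap-binding paralogs Eif4e2 (0.17 ± 0.08, adjusted p = 0.129) and Eif4e3 (0.06 ± 0.10, adjusted p = 0.696), the cofactor Eif4h (0.13 ± 0.09, adjusted p = 0.276) and Eif4a3, the helicase of the exon junction complex (0.15 ± 0.11, adjusted p = 0.374), were not called. Eif4enif1, which carries eIF4E into the nucleus, rose slightly (0.28 ± 0.08, adjusted p = 0.0284). Its call ended without any 1 of NTV 3, 5 and 6 and TV 3, 4 and 6 (adjusted p up to 0.0812). The germline form Eif4e1b had 2 reads in all 12 libraries together.

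The subunits of eIF2 did not move as a unit. Eif2s1, the alpha subunit that stress kinases phosphorylate, read 9.94, 11.4, 9.54 and 11.4 FPKM in NTV, 9.54, 7.92, 8.06 and 8.62 in TV and 8.59, 8.61, 8.65 and 8.97 in TL. It was the only member to fall in TV (-0.29 ± 0.09, adjusted p = 0.0285), and its TL values, close together, also lay below all NTV values (-0.26 ± 0.09, adjusted p = 0.0777). Eif2s2, the beta subunit, rose from 23.9 ± 2.65 to 31.1 ± 2.73 FPKM (0.38 ± 0.11, adjusted p = 0.0297). Eif2s3x, the X-linked gamma subunit, stood at 26.4 ± 1.13, 25.2 ± 1.66 and 25.4 ± 0.544 FPKM in NTV, TV and TL (-0.07 ± 0.07, adjusted p = 0.527). Its Y-linked copy Eif2s3y had 0 reads in each of the 12 libraries of female mice, which allows up to 3 reads per library. The related tRNA delivery factors Eif2a (0.13 ± 0.12, adjusted p = 0.442) and Eif2d (0.34 ± 0.13, adjusted p = 0.0727) were not called. Leaving out 1 library ended the call of Eif2s1 (NTV 3 or 6 or TV 4 or 6, adjusted p at most 0.0811) and of Eif2s2 (NTV 2 or 5 or TV 4 or 6, up to 0.0806).

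Of the 5 eIF2B genes, which encode the exchange factor for eIF2, 2 rose in TV (13.8% of all genes) and 3 were not called. Eif2b5, the catalytic epsilon subunit, read 23.8, 23, 23.5 and 26.3 FPKM in NTV, 31.4, 34.2, 33.1 and 30.1 in TV and 25.1, 31.4, 25 and 26.9 in TL (0.41 ± 0.09, adjusted p = 0.00862), with TV above all NTV values. Eif2b3, the gamma subunit, was the least abundant and rose from 2.08 ± 0.182 to 2.95 ± 0.523 FPKM (0.41 ± 0.13, adjusted p = 0.0348). Its call ended without any 1 of NTV 2, 3 and 5 and TV 3 and 4 (adjusted p up to 0.0965). The regulatory subunits Eif2b1 (0.26 ± 0.11, adjusted p = 0.0995), Eif2b2 (0.15 ± 0.14, adjusted p = 0.458) and Eif2b4 (-0.14 ± 0.09, adjusted p = 0.257) were not called. Eif2b1 was split within TV, where replicates 3 and 4 read 23.9 and 23.3 FPKM and replicates 6 and 8 read 18.2 and 17.

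Of the 2 tested genes for eIF5A and eIF6, none was called by limma in TV against NTV, and 1 was higher at an unadjusted p under 0.05 (20.8% of all genes). Eif5a, the hypusine-bearing factor that helps peptide bond formation, stood at 119 ± 8.46 and 140.4 ± 5.73 FPKM (0.24 ± 0.09, adjusted p = 0.0828), and Eif6, which keeps the ribosomal subunits apart, at 13.3 ± 1.22 and 15 ± 1.17 FPKM (0.17 ± 0.09, adjusted p = 0.182). Eif5a2, the paralog of restricted expression, was at 0.307 ± 0.123, 0.434 ± 0.194 and 0.494 ± 0.0797 FPKM in NTV, TV and TL, under the filter for testing.

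The elongation factors were the most abundant members, and 2 of 7 rose in TV (13.8% of all genes) while 5 were not called. Eef2, the translocase, read 413, 555, 449.7 and 457 FPKM in NTV, 836, 749, 799 and 842 in TV and 460.4, 555, 429 and 428 in TL. Every TV value was above every NTV and TL value, and the NTV and TL ranges overlapped almost fully. The change in TV against NTV was 0.79 ± 0.13, adjusted p = 0.00217, a 1.73-fold rise. This call held in all 12 fits with 1 library left out (adjusted p up to 0.00881).

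Eef1a2, the eEF1A of adult muscle, was the most abundant member in NTV and the eEF1A form with the higher level in every library. It read 789, 868, 742 and 815 FPKM in NTV, 740.1, 632, 922 and 963 in TV and 644, 669, 648 and 594 in TL, and TV 6 and 8 were its highest values. Its mean did not differ between TV and NTV beyond the spread (0.00 ± 0.14, adjusted p = 0.997). Eef1a1, the form of most other cells, read 177, 164, 213 and 201 FPKM in NTV, 339.8, 272, 193 and 275 in TV and 228, 332, 244 and 221 in TL. TV 6 lay within the NTV range and the other TV values above it, and the change was not called (0.49 ± 0.18, adjusted p = 0.0654). It passed without TV 6 (0.64, adjusted p = 0.0173). The Eef1a1 to Eef1a2 ratio was 0.224, 0.189, 0.288 and 0.247 in NTV, 0.459, 0.429, 0.209 and 0.285 in TV and 0.354, 0.496, 0.377 and 0.373 in TL. All TL ratios exceeded all NTV ratios, whereas TV spanned from within the NTV range to within the TL range.

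**Figure D3:**
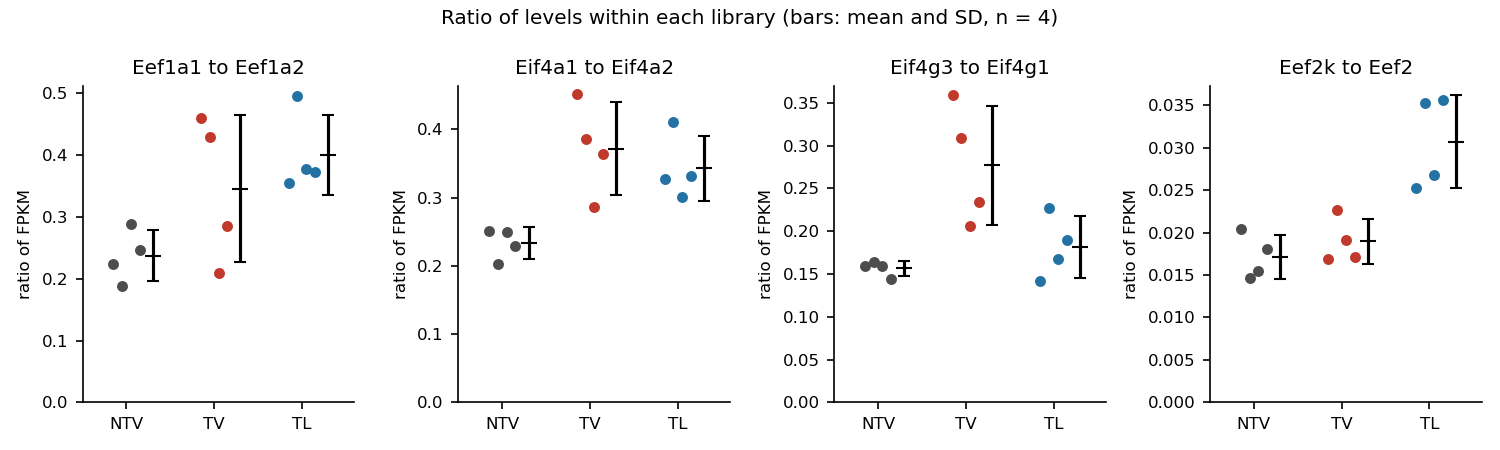
Ratios of FPKM between paired members in each library, on linear axes, with the mean and SD of each group and 1 panel per pair. The Eef2k to Eef2 ratio lies between 0.0252 and 0.0356 in TL and is at most 0.0227 in the other 8 libraries.

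The exchange factor for eEF1A has several subunits. Eef1b2, which carries the exchange activity, read 60.6, 67.7, 51 and 66.4 FPKM in NTV, 76.5, 78.6, 74.3 and 87.3 in TV and 61, 74.9, 63.7 and 72.9 in TL (0.37 ± 0.11, adjusted p = 0.0319). All TV values were above all NTV values, and the call ended without any 1 of NTV 2 and 5 and TV 3, 4 and 8 (adjusted p up to 0.0823). Eef1d, a second exchange subunit (0.04 ± 0.11, adjusted p = 0.845), Eef1g, its structural partner (-0.06 ± 0.13, adjusted p = 0.773), and Eef1e1, a scaffold of the aminoacyl tRNA synthetase complex (-0.24 ± 0.11, adjusted p = 0.115), were not called.

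Of the 5 tested enzymes that modify elongation factors, only Eef2k was called in TV against NTV, where 13.8% of all genes were called higher. The kinase of eEF2 read 8.41, 8.12, 6.97 and 8.27 FPKM in NTV, 14.2, 17, 15.3 and 14.4 in TV and 11.6, 19.6, 11.5 and 15.2 in TL. All 8 libraries with a tumour were above all 4 NTV libraries, and TL 4 was the highest of all. The change in TV against NTV was 0.90 ± 0.15, adjusted p = 0.00249, a 1.86-fold rise, and it held with each library left out (adjusted p up to 0.00937). The methyltransferases of eEF1A, Eef1akmt1 (-0.04 ± 0.12), Eef1akmt2 (0.06 ± 0.16) and Eef1akmt4 (-0.32 ± 0.24), and that of eEF2, Eef2kmt (0.03 ± 0.15), were not called, with adjusted p from 0.361 to 0.924. Eef1akmt3 had 6 reads in all libraries together.

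**Figure D4:**
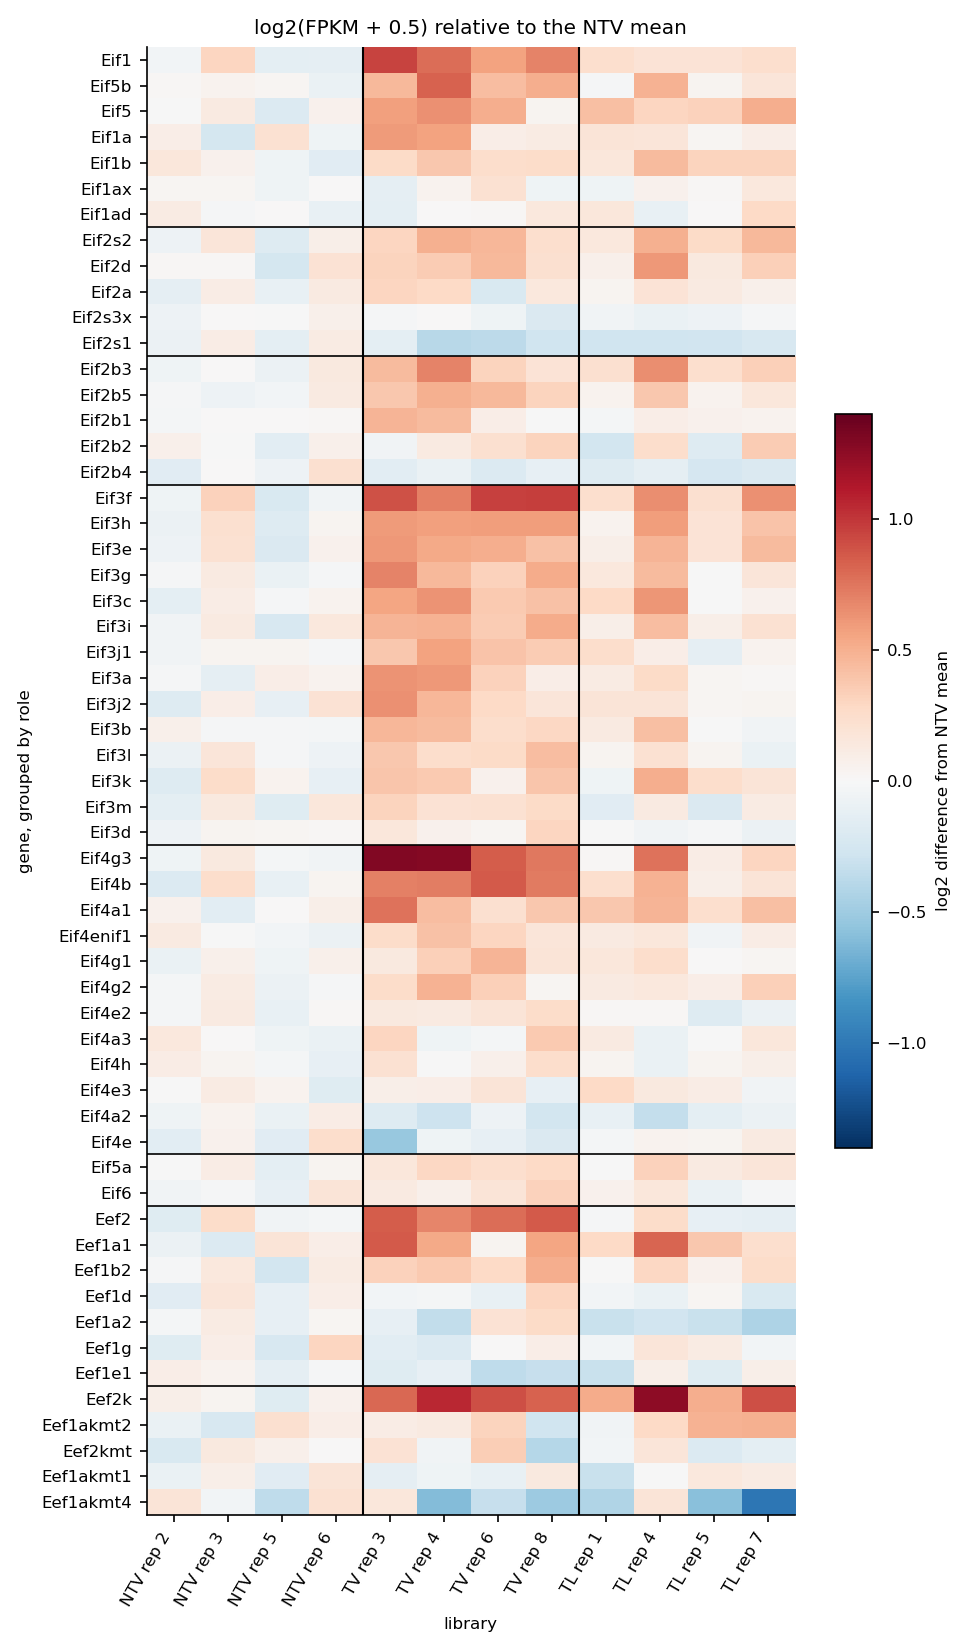
Log2(FPKM + 0.5) of each tested member in each library minus its mean over the 4 NTV libraries, with members grouped by role and libraries by group. The eIF3 rows are above 0 across the TV columns, and TL 4 has the highest summed eIF3 level of the TL columns.

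Of the members, 13 were listed from textbook knowledge as mRNAs with a terminal oligopyrimidine tract. Of these, 8 rose in TV (13.8% of all genes) and 5 gave no call (median 0.41). Of all 57 tested members, from which the list was drawn, 25 rose (43.9%, median 0.28). Several listed genes belong to eIF3, the group with the most calls. The 8 were Eef2, Eef1b2, Eif3a, Eif3e, Eif3f, Eif3h, Eif3l and Eif4b. Eef1a1, Eef1a2, Eef1d, Eef1g and Eif3k made up the rest. In the scan of annotated starts, 3 of the 9 listed members with an entry held matching letters (Eef1a1, Eif3f and Eif3l). Eef1a2, Eef1b2, Eef2, Eif3a, Eif3k and Eif4b did not. The scan reached only 5 bases from an annotated start, so a match or its absence does not show how the mRNA begins. Within the list the changes ran from -0.06 for Eef1g to 0.88 for Eif3f.

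The comparison of TL with TV asked which of these levels differed with selpercatinib in tumour-bearing mice. Only Eef2 was called among the 57 members, lower in TL (-0.79 ± 0.13, adjusted p = 0.0222), a fall to 0.578 of the TV level, while 0.282% of all genes were called lower and 0.235% higher. No TL value of Eef2 overlapped TV, and its TL mean of 468 ± 59.9 FPKM differed from the NTV mean of 469 ± 61 by less than the spread. The call depended on the libraries and on the processing. It ended with an equal FPKM total (adjusted p = 0.0765), quantile normalization (0.0599), no filter on low values (0.0848) or only the 2 groups compared (0.0948). It also ended without TV 3 or 4 or TL 1, 5 or 7 (adjusted p up to 0.0857) and without both TL 1 and 5 (0.305), although the log2 change stayed between -0.88 and -0.75 with each library left out. TL 1 and 5 stood apart from the other libraries on principal component 2 of all tested genes, at -31.9 and -32.6. Gm13050, a pseudogene nearly identical to part of Eef2, had 9.97 FPKM on average, and adding its reads left the change at -0.79.

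No member was called higher in TL than in TV by limma. The same was found with voom on recovered reads, and 1 member was higher at an unadjusted p under 0.05 (7.15% of all genes), against 20 lower (8.98% of all genes). Of the 57 members, 45 had a negative change, with a median of -0.12 against -0.0031 for all genes. Under the 4 other scalings between libraries 34 to 45 members were negative. The 4 TL values lay wholly below TV for 10 members, where this held for 4.05% of all genes, and wholly above for 1 (3.36% of all genes). The 14 eIF3 genes were all below 0 (median -0.28), 13 of 14 with an equal total that left out mitochondrial and the 50 most abundant genes, and none of them was called. At an unadjusted p under 0.05, 11 of the 14 were lower, where this held for 8.98% of all genes.

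The members nearest to a call besides Eef2 were the scaffold Eif4g3 (-0.75 ± 0.17, adjusted p = 0.0797), the start codon factor Eif1 (-0.53 ± 0.12, adjusted p = 0.0801) and the helicase cofactor Eif4b (-0.50 ± 0.12, adjusted p = 0.0833). Eif3f changed by -0.44 ± 0.14, adjusted p = 0.174. TL 4, which lay nearest to TV on principal component 1, had the highest TL value of Eif4g3, Eif4b, Eif3f and Eef2. Without TL 4, 4 members were called lower in TL. These were Eef2, Eif4g3 (-0.91, adjusted p = 0.0175), Eif4b (-0.58, 0.0324) and Eif5b (-0.49, 0.0436). Eif4e had the largest positive estimate of the tested members (0.27 ± 0.12, adjusted p = 0.299), and all 4 TL values were above all 4 TV values.

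The comparison of TL with NTV gives the levels left in drug-treated tumour-bearing mice relative to tumour-free mice. Only Eef2k was called, higher in TL (0.80 ± 0.15, adjusted p = 0.0107, 1.74-fold), where 4.19% of all genes were called higher and 4.62% lower. Its TL mean of 14.5 ± 3.81 FPKM differed from the TV mean of 15.2 ± 1.3 by less than the spread (-0.10 ± 0.15, adjusted p = 0.793). That TL mean covers TL 1 and 5, at 11.6 and 11.5 FPKM, and TL 4 and 7, at 19.6 and 15.2. The call of Eef2k in TL against NTV held in each of the 12 fits with 1 library left out (adjusted p up to 0.0343). None of the members was called lower by limma or by voom on recovered reads, and 3 were lower and 11 higher at an unadjusted p under 0.05, where this held for 13.3% and 14.1% of all genes. The 3 comparisons share libraries, so their counts are not independent of each other.

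In TL, then, Eef2 lay in the NTV range and the mRNA of its kinase above it. The Eef2k to Eef2 ratio was 0.0204, 0.0146, 0.0155 and 0.0181 in NTV, 0.0169, 0.0227, 0.0191 and 0.0171 in TV and 0.0252, 0.0352, 0.0268 and 0.0356 in TL. The TL ratios were above those of all 8 vehicle libraries. These are ratios of mRNA, and phosphorylation of eEF2 was not measured.

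Of the 57 members, 43 had a positive change in TL against NTV, with a median of 0.11 against 0.02 for all genes. With an equal FPKM total 52 were positive, where the median of all genes was itself 0.14, and under the 3 other scalings 42 to 43. Besides Eef2k, none of them passed the test. Eif2s2 had a mean of 30.4 ± 3.54 FPKM in TL (0.34 ± 0.11, adjusted p = 0.0757 against NTV), Eif4a1 29.6 ± 2.14 (0.38 ± 0.11, adjusted p = 0.0588), Eif5 42.6 ± 2.92 (0.39 ± 0.13, adjusted p = 0.0809) and Eif1b 28.2 ± 2.33 (0.31 ± 0.09, adjusted p = 0.0575). For Eif4a1 and Eif5 no TL value overlapped NTV. Eef1a2 was lower in all 4 TL libraries than in all 4 NTV libraries without a call (-0.33 ± 0.14, adjusted p = 0.157). Without TL 1 and 5, 5 members were called higher in TL than in NTV, namely Eef2k, Eif2s2, Eif3e, Eif3f and Eif3h. The 4 TL values lay above NTV for 5 members and below for 2, where this held for 10.8% and 10.1% of all genes.

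Eef1g, which itself gave no call, shares its sequence with Gm4366, a processed pseudogene at chr7:116824510-116825851 (mm10) that is 99.6% identical to it over 1342 bases. Eef1g read 103, 125, 99.4 and 144 FPKM in NTV, 105, 102, 117 and 125 in TV and 114, 131, 126 and 113 in TL. Gm4366 read 83.1, 105, 81.5 and 47.2 FPKM in NTV, 79.7, 75.7, 88.2 and 88.4 in TV and 35.2, 41.2, 43.6 and 38.4 in TL. The Eef1g groups overlapped, whereas all 4 TL values of Gm4366 lay below all 8 others, and it was called lower in TL than in TV (-1.06 ± 0.19, adjusted p = 0.0364) and than in NTV (-0.94 ± 0.19, adjusted p = 0.0148). Neither call was checked with libraries left out. How the counting divided reads between the gene and the pseudogene is not given in the sources used here. With both summed, the log2 change of Eef1g was -0.13 in TL against TV and -0.16 in TL against NTV, opposite in sign to 0.11 and 0.05 for the gene alone, and none of these was called.

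The genes that act on these factors gave context from lists of partners. Of 19 tested regulators of translation, a list of repressors, kinases, phosphatase subunits, members and inhibitors of mTORC1 and the ribosomal protein gene Rps6, 10 rose and 1 fell in TV. Over all genes, 13.8% were called higher and 11.5% lower. Rps6 was among the 10 (0.45 ± 0.12, adjusted p = 0.0216), a call that ended without NTV 2, NTV 5 or TV 3 (highest adjusted p 0.0597), and without it 9 of 18 rose. Eif4ebp1, the repressor that sequesters eIF4E, read 9.78, 22.6, 12.9 and 14.1 FPKM in NTV, 170.4, 102, 57.5 and 69.3 in TV and 46, 69.6, 34.5 and 31.9 in TL (2.64 ± 0.35, adjusted p = 0.00123). All 8 libraries with a tumour exceeded all NTV libraries, and the rise was also called in TL against NTV (1.58 ± 0.35, adjusted p = 0.0207). The Eif4ebp1 to Eif4e ratio of FPKM ran from 0.52 to 1.04 in NTV, from 2.98 to 11.9 in TV and from 1.4 to 3.21 in TL. Ddit4, an inhibitor of mTORC1 (3.22 ± 0.95, adjusted p = 0.0287), and Ppp1r15a, a subunit of the phosphatase of eIF2 alpha (1.71 ± 0.26, adjusted p = 0.00153), rose in TV, and Eif2ak2, the double-stranded RNA-activated kinase of eIF2 alpha, fell (-0.58 ± 0.15, adjusted p = 0.0165). In TL against NTV the other call of this list was Ppp1r15b (0.45 ± 0.12, adjusted p = 0.0419), which missed the threshold once any 1 of 7 libraries was removed (highest adjusted p 0.113). The call of Ddit4 ended without NTV 2, NTV 6, TV 3, TV 4 or TV 6 (highest adjusted p 0.0806), and that of Eif4ebp1 in TL against NTV without NTV 2, NTV 5, NTV 6 or TL 4 (highest adjusted p 0.0605).

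**Figure D5:**
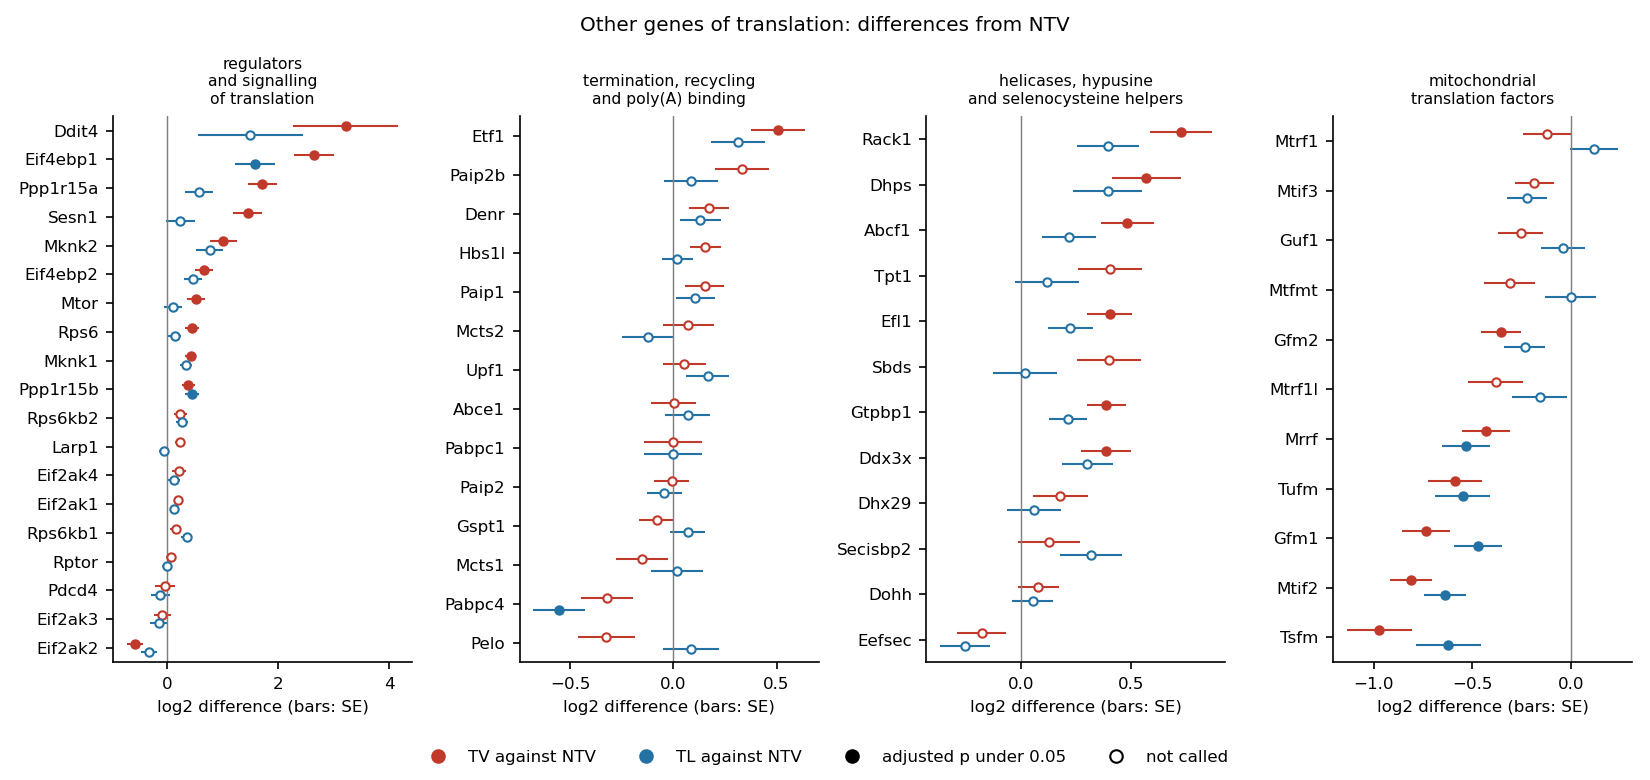
Log2 change of the genes of 4 partner lists in TV against NTV and TL against NTV, as points with bars of ±1 standard error from limma; filled points passed the test. Mitochondrial translation factors lie at or below -0.12 in TV against NTV, while 10 of 19 tested regulators of translation, Rps6 included, passed above 0 (13.8% of all genes).

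Of 11 tested mitochondrial translation factors, 6 fell in TV and 5 gave no call (median -0.38), with all 11 estimates below 0. Over all genes, 11.5% were called lower in TV. The largest falls were those of Tsfm (-0.97 ± 0.16, adjusted p = 0.0025), the exchange factor of the mitochondrial elongation factor, Mtif2 (-0.81 ± 0.11, adjusted p = 0.00122), the initiation factor, and Gfm1 (-0.73 ± 0.12, adjusted p = 0.00231), the counterpart of eEF2. Gfm1 read 38.5, 42, 40.2 and 43.3 FPKM in NTV, 22.8, 28.5, 26.4 and 20.7 in TV and 32.4, 29.4, 32.5 and 24 in TL, so it was lowest in the group where Eef2 was highest. In TL against NTV 5 of the 11 fell, where 4.62% of all genes were called lower. Among them were Mtif2 (-0.64 ± 0.11, adjusted p = 0.00645), Tsfm (-0.62 ± 0.16, adjusted p = 0.0374) and Tufm, the mitochondrial elongation factor that delivers tRNA (-0.55 ± 0.14, adjusted p = 0.0321). The falls of Tsfm, Mtif2 and Gfm1 in TV held with each library left out. In TL against NTV that of Mtif2 held, while the call of Tsfm ended when any 1 of 8 libraries was left out, that of Gfm1 when any 1 of 6 was and that of Tufm when any 1 of 5 was (highest adjusted p 0.106, 0.0893 and 0.084). The share of mitochondrial reads given above moved in the same direction, and its part was not tested.

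Of 14 tested genes for termination, ribosome recycling and poly(A) binding, Etf1, the release factor that reads stop codons, rose in TV (0.51 ± 0.13, adjusted p = 0.0162) and 13 were not called. Over all genes, 13.8% were called higher. Pabpc1, the main poly(A)-binding protein, stood at 13.2 ± 1.74, 13.2 ± 1.94 and 13.2 ± 2.08 FPKM in NTV, TV and TL. Pabpc4, its relative, was called lower in TL than in NTV (-0.55 ± 0.13, adjusted p = 0.0214), which missed the threshold once any 1 of 6 libraries was removed (highest adjusted p 0.062). Of 12 helpers of initiation and elongation, 6 rose in TV (13.8% of all genes). The largest changes were those of Rack1, a scaffold on the small subunit (0.73 ± 0.14, adjusted p = 0.0046), Dhps, which begins hypusine formation on eIF5A (0.57 ± 0.16, adjusted p = 0.021), and Abcf1, a partner of eIF2 (0.48 ± 0.12, adjusted p = 0.0143). The call of Dhps ended without NTV 5 or TV 4 (highest adjusted p 0.059). None of these 6 fell in TL against TV by limma, where 3 of the 12 were lower at an unadjusted p under 0.05 (8.98% of all genes).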

How the data were processed

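Poly(A) RNA of 12 gastrocnemius muscles was sequenced after random hexamer priming, per the labels' protocols, and whether counting used strand is not stated. Per the submitters' processing notes, the tools were featureCounts 1.5.0-p3, HISAT2 2.05 and DESeq2, with build mm10, roles not given. The authors deposited 1 table of FPKM for 54532 genes, with a gene length per gene, all 12 sample columns of which were used. In each library FPKM times length gave whole reads for 100% of genes within 0.1 read, and the scale between libraries equalled median-of-ratios size factors within 8.67e-11. The deposited FPKM thus rest on most genes being alike in all groups. Within groups, every pair of libraries differed beyond counting error (chi-square per degree of freedom at least 16.4 over 18 pairs). Limits from 0 reads are 3 reads, for counting error alone.

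Differences in log2(FPKM + 0.5) were tested here with limma 3.58.1 (R 4.3.3). For genes of low level the constant makes changes look smaller. The fit had 1 mean per group, all 12 libraries and a mean-variance trend. P-values were adjusted by Benjamini-Hochberg over the 12754 genes averaging 0.5 FPKM or more, and calls were made at an adjusted p under 0.05. Values after ± are the SE of a log2 change or the SD of a level (n = 4 per group). Sums, ratios and lists were described without a test. The members and lists were chosen with earlier results of these data known. Named in full were the called members with the 10 largest rises and 10 largest falls per comparison, a set list of main subunits, and the called partner genes with the 3 largest changes per list. Gm4366 was singled out after its values were seen.

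On simulated data for TV against NTV over 12754 genes, limma recovered 79 of 100 simulated 2-fold changes and 91 of 100 of 4-fold. It made 10 false calls. Changes under 2-fold, such as those of nearly all members, and the other comparisons were not simulated. Alternatives were other pseudocounts, filters and scalings, no trend, robust shrinkage, only the 2 groups compared, voom on recovered reads, a replicate block, libraries left out and, added after the data were seen, reads of near-identical copies (at least 95% over 300 bases of GENCODE transcripts). No label says that the replicate numbers pair mice, so they were not treated as pairs. Same-numbered libraries of different groups correlated in their deviations at 0.014 to 0.133, and differently numbered ones at -0.227 to 0.238. Start windows came from RefSeq (GRCm38.p6). Figures used Python 3.11.15 and matplotlib 3.10.9.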

Additional observations from a re-analysis of the deposited data

Results flagged for a closer look

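Of 171 sets of 4 libraries (57 members in 3 groups), 10 held a library whose gap to the others exceeded Dixon's 95% limit for sets of that size, where chance alone marks about 1 set in 20. Several of these gaps were wide only because the other 3 libraries were close together. In NTV, replicate 2 stood apart for Eif2b1 (16.6 FPKM against 17.1 in each of the others), Eif3b (32.6 against 30.6 to 30.8) and Eif3d (6.52 against 6.96 to 7.04), and replicate 3 for Eif4g3 (15.3 against 13.3 to 13.6). In TV, replicate 6 was low for Eif3k (22.0 against 27.4 to 27.8) and high for Eif4b (91.8 against 82.4 to 83.5). TV replicate 4 was high for Eif1b (29.5 against 26.9 to 27.3) and Eif5b (17.7 against 13.4 to 14.1), and TV replicate 8 for Eef1d (19.5 against 14.6 to 15.4). In TL, replicate 7 was high for Eif2s1 (8.97 against 8.59 to 8.65). The Eif4b and Eif4g3 libraries did not touch the other group in TV against NTV.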

How the results depend on the processing

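No called member changed direction in any alternative (0 of 756 values), and 15 of the 28 calls held with each of the 12 libraries left out in turn. Of 3861 alternative values of uncalled members, 165 changed sign and 25 passed the test. The count of members higher in TV than in NTV (25) became 15 with an equal FPKM total, 15 with an equal total over genes outside the mitochondrial genome and the top 50, and 15 with quantile normalization. It ranged from 15 to 27 with single libraries left out. The count lower (1) became 0, 4 and 2 with these 3 scalings and 0 with only the 2 groups compared, and ranged from 0 to 1. In TL against TV, the count lower (1) became 0 with no filter, an equal FPKM total, quantile normalization, only the 2 groups compared, or without TL 1 and TL 5, and ranged from 0 to 4. In TL against NTV, the count higher (1) became 2 with quantile normalization, 3 with only the 2 groups compared and 5 without TL 1 and TL 5, and ranged from 1 to 2. With the replicate block, the counts of 25 and 1 in TV against NTV, 1 in TL against TV and 1 in TL against NTV all became 0. That fit called 0 of all 12754 genes in each comparison. The groups share few numbers (3 and 6 in NTV and TV, 4 in TV and TL, 5 in TL and NTV), so the block leaves few libraries to compare. Over all genes, the TV against NTV calls were 1755 higher and 1462 lower as deposited, and 1174 and 2010 with the equal total without mitochondrial and top genes. The TL against TV calls were 30 and 36 as deposited, 30 and 10 with an equal FPKM total and 40 and 23 without those genes, and the TL against NTV calls 534 and 589 as deposited and 459 and 270 with an equal FPKM total. The equal FPKM total moved the median of all genes in TL against NTV from 0.02 to 0.14, so changes under it are relative to that shift. The 4 untested members fell under the filter on low values and gave no comparison.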

Other observations

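The pseudogenes nearest to members had their own levels. Eif4a-ps4 read 16.4, 16.5, 18.5 and 17.4 FPKM in NTV, 30.3, 23.8, 20.4 and 23.5 in TV and 22.7, 21.1, 21.7 and 24.5 in TL, and was called higher in TV than in NTV (0.48 ± 0.11, adjusted p = 0.00952), as Eif4a1 was. Gm13050, which matches part of Eef2, was called higher in TV than in NTV (0.72 ± 0.14, adjusted p = 0.00472) and lower in TL than in TV (-0.77 ± 0.14, adjusted p = 0.0364), as Eef2 was. Gm9892, which matches Eif2s2, was not called in TV against NTV (0.38 ± 0.15, adjusted p = 0.0775). Gm4366, which matches Eef1g, was lower in TL than in both other groups while Eef1g was not called, and its NTV libraries spread from 47.2 to 105.1 FPKM. Whether reads of the parent genes contribute to these values was not tested, and the calls of the pseudogenes were not checked with libraries left out.

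Ucp1, the uncoupling protein of brown adipocytes, was at 53.4 FPKM in NTV 5, 58.3 in TL 1 and 3.97 in TL 5, and at most 1.06 in the other 9 libraries. The part of this difference in the members' levels was not tested. The count of members called higher in TV than in NTV was 17 without NTV 5, 17 without NTV 2, 19 without NTV 6 and 20 without NTV 3.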
